A study of Mus musculus with 8 samples.

Results

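The Toll-like receptors Tlr1, Tlr2, Tlr3, Tlr4, Tlr5, Tlr6 and Tlr9, the cytosolic sensors Nod1 and Nod2 and the adaptor Myd88 were followed across all peak lists of 2 acetylation marks in mouse small intestinal crypts. These 10 genes were chosen by function, with earlier results of these data known. They are 10 of 21883 protein-coding genes of the RefSeq table for GRCm38. A locus was the gene body with 50 kb on each side. A gene counted as marked in a list if any peak reached to 1 kb or less from one of its ends. CUT&Tag, in which an antibody tethers a transposase to a chromatin mark, was run for H3K27ac and H3K9ac. Male C57BL/6J mice were 9 weeks old. They were fed (Fed) or fasted for 24 h (Fast), each without tetracycline (-Tetra) or after 21 days of it (+Tetra), which gave 4 groups per mark. No mutation, transgene or common treatment was listed for any group. Crypts were shaken off in HBSS with EDTA and made into single cells with trypsin; no sort that would remove other cells is described.

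Toll-like receptors bind conserved parts of microbes: Tlr2 with Tlr1 or Tlr6 bind lipoproteins, Tlr4 lipopolysaccharide and Tlr5 flagellin at the cell surface, while Tlr3 binds double-stranded RNA and Tlr9 unmethylated CpG DNA in endosomes. Nod1 and Nod2 sense fragments of peptidoglycan in the cytosol. Myd88 joins all of these Toll-like receptors except Tlr3 to the kinases that activate NF-kB. In the small intestine Paneth cells are known to need Nod2 and Myd88 for part of their antimicrobial programme, and tetracycline lowers the bacterial load and so the supply of these ligands.

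Each group held 1 sample per mark with 2 peak lists, 16 lists in all; the deposited names, and no label, number them 1 and 2. The labels do not say that lists 1 and 2 came from different mice, so each spread is between lists, and a comparison of 4 lists with 4 lists rests on 2 samples per state. The H3K27ac lists held 32392 to 68545 peaks and marked 42.9 to 50.7% of genes, and the H3K9ac lists held 17249 to 99050 peaks and marked 41.1 to 53.2% of genes. Read depth is unknown. Each H3K27ac list marked 10 of 10 epithelial marker genes, and the H3K9ac lists 8 to 10. Of 10 blood and immune marker genes, 3 to 6 were marked per H3K27ac list and 1 to 4 per H3K9ac list. Cd79a, a B cell gene, was marked in 8 H3K27ac lists, and the macrophage gene Adgre1 in 0 lists of either mark. Several sensors are also expressed by immune cells, and the part of such cells in the marks below was not tested. Fewer cells of a type and less of the mark per cell cannot be told apart in these samples.

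The sequences just before the start sites are shown for 6 genes that span the range of marking. Myd88 and Nod2 had a peak within 1 kb of the start in 8 of 8 H3K27ac lists. Tlr1 and Tlr6 had one in 0 of 8, at either of their 2 start sites in the table, of which the first is shown. The Tlr6 start sites lie inside its gene body, 11.8 and 10.9 kb from its 5′ end, which was marked in 8 of 8 H3K27ac lists. The bases shown for Tlr6 are not those before that marked end. Tlr2 and Tlr9 were added after their values were seen, because their peaks are discussed at length below. Each run gives the 250 bases before the start, 5′ to 3′ on the gene's strand, from RefSeq (GRCm38). Capitals mark matches, on either strand, to the motifs GGGCGG (bound by Sp1), TATAAA (the TATA box), TGANTCA (bound by AP-1), AGAGGAAG (bound by PU.1), GAAANNGAA (bound by interferon regulatory factors), CAAAGTCCA (bound by Hnf4a) or the NF-kB consensus. The windows lie at chr9:119340019-119340268 (minus strand) for Myd88, chr8:88647097-88647346 (plus) for Nod2, chr3:83841609-83841858 (minus) for Tlr2, chr9:106222348-106222597 (plus) for Tlr9, chr5:64933559-64933808 (minus) for Tlr1 and chr5:64959167-64959416 (minus) for Tlr6.
Myd88: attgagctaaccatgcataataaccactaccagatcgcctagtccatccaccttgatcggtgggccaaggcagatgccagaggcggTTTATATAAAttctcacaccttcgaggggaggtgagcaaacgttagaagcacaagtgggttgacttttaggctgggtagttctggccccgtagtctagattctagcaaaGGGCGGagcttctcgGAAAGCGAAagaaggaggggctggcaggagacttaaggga
Nod2: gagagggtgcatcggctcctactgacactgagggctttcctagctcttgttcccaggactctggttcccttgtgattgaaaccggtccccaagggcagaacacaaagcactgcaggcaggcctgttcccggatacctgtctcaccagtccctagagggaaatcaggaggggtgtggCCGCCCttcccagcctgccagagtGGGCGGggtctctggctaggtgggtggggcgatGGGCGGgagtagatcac
Tlr2: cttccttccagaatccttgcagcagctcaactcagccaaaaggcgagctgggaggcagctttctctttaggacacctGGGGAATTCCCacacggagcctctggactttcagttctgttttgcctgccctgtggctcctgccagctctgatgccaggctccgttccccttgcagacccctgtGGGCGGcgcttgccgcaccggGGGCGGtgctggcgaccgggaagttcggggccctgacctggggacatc
Tlr9: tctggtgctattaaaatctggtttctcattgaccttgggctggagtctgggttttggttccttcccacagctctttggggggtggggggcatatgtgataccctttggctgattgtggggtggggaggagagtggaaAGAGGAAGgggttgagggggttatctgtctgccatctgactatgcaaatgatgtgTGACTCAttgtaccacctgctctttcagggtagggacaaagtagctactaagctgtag
Tlr1: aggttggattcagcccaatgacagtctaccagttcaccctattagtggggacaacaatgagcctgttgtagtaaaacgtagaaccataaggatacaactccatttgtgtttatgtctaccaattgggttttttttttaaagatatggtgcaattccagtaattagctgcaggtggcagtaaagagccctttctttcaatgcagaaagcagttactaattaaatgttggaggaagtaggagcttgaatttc
Tlr6: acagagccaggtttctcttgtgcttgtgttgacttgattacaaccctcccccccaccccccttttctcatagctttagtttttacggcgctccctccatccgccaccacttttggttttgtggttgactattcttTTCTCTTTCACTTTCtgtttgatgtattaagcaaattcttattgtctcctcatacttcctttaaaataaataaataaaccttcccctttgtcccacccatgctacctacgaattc

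The window before Myd88 held 9 CG dinucleotides, 1 GGGCGG, 2 overlapping matches to TATAAA and 1 GAAANNGAA. The window before Nod2 held 7 CG and 3 GGGCGG. Tlr2, which was seldom marked, had 11 CG, 2 GGGCGG and 2 overlapping matches to the NF-kB consensus. Tlr9 had 0 CG, 1 TGANTCA and 1 AGAGGAAG, and the first window of Tlr1 had 1 CG and no match. The first window of Tlr6 had 4 CG and 2 overlapping matches to GAAANNGAA, and its second had 3 matches to TATAAA. Tlr3 had 6 CG and 1 NF-kB match with H3K27ac at the start in 8 lists. Over all 21262 promoter windows, 42.6% held GGGCGG, 11.6% TATAAA, 6.13% TGANTCA, 3.60% AGAGGAAG, 6.83% GAAANNGAA, 0.390% CAAAGTCCA and 4.18% the NF-kB consensus. Windows with 10 or more CG had H3K27ac within 1 kb in all 8 lists in 53.5% of cases, against 14.0% of windows with fewer. In all, 9 of the 10 genes had a promoter entry, with 12 windows between them, and Tlr4 had none.

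Marking at the gene ends split the 10 genes into constant, occasional and unmarked ones. In H3K27ac, 4 genes (Tlr3, Tlr6, Nod2 and Myd88) were marked in all 8 lists and Nod1 in 7, while Tlr2 was marked in 2, Tlr5 in 1, and Tlr1, Tlr4 and Tlr9 in 0. Over all genes, 33.6% were marked in all 8 H3K27ac lists and 39.4% in none. In H3K9ac, Myd88 and Nod1 were marked in all 8 lists, Tlr6 in 7, Nod2 in 5, Tlr2 and Tlr3 in 4, Tlr5 and Tlr9 in 2, Tlr4 in 1 and Tlr1 in 0. For that mark 21.1% of all genes were marked in all 8 lists and 25.2% in none. The ends marked in most lists are thus those of the adaptor, both NOD sensors and the RNA sensor Tlr3, and the end of Tlr6 that it shares with a neighbour.

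**Figure D1:**
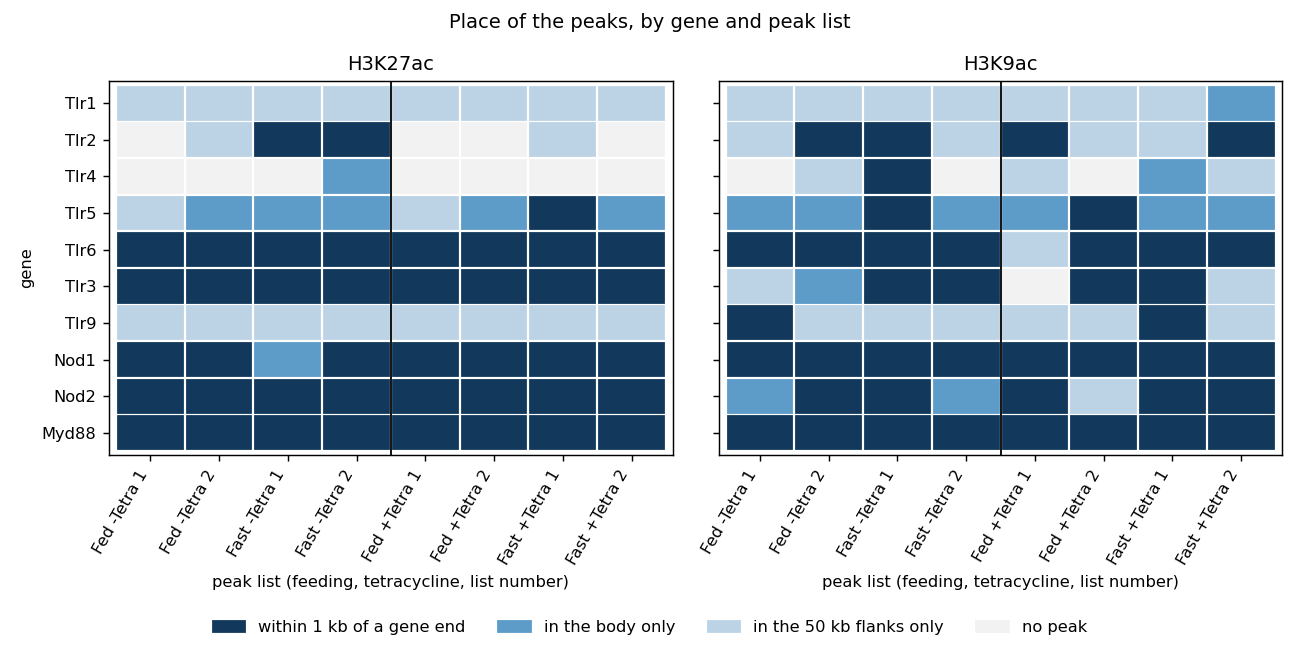
Each cell is 1 gene in 1 peak list, for H3K27ac (left) and H3K9ac (right), with lists without tetracycline left of the line and lists with it to the right; the shade gives the place of the peaks. Tlr3, Tlr6, Nod2 and Myd88 are dark in all 8 H3K27ac lists and Tlr9 is flank only in all 8, on both sides of the line.

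Among the surface receptors, Tlr2 had H3K27ac at its start in 1 of the 4 groups. The H3K27ac region at its start (chr3:83841239-83841930) had a peak in Fast -Tetra lists 1 and 2, 236 and 692 bp wide, and in none of the other 6 lists. Of the peaks of those 2 lists, 56.3 and 81.5% scored higher, so both were weak by their list's own score. In H3K9ac an end of Tlr2 was marked in 4 lists, 1 from each group (Fed -Tetra 2, Fast -Tetra 1, Fed +Tetra 1 and Fast +Tetra 2). The Fed +Tetra 1 peak lay at the other end of the gene, 4.59 kb from the start. The start itself thus had H3K9ac in 3 lists, 2 without and 1 with tetracycline, and in no group in both lists. Between 31.4 and 99.5% of a list's peaks scored above these H3K9ac end peaks. The whole Tlr2 locus was almost bare of H3K27ac, with 0 to 0.692 kb covered.

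Tlr5, the flagellin receptor, carried its peaks inside the gene rather than at its start. An H3K27ac region 2.09 kb downstream of the start (chr1:182956874-182957871) had a peak in 5 lists, 3 with and 2 without tetracycline. A second one, 4.94 kb downstream (chr1:182959729-182960578), had a peak in 3 of 4 Fast lists and 0 of 4 Fed lists. Its peaks were among the weakest of their lists, where 90.0 to 98.9% of peaks scored higher. At nearly the same place an H3K9ac region (chr1:182959830-182960710) had a peak in 6 lists, 3 Fast and 3 Fed, so the split by feeding was not seen in that mark. Farther out, 45.8 kb upstream, an H3K27ac region (chr1:182907982-182909029) had a peak in all 4 Fed lists and both Fast -Tetra lists, and in neither Fast +Tetra list. That region was picked out after its values were seen, and between 29.8 and 90.4% of the peaks in its lists scored higher. Past the end of the gene, 28.1 kb downstream of the start, an H3K27ac region (chr1:182982901-182984051) had a peak in 4 lists, 2 with and 2 without tetracycline, and the H3K9ac region there (chr1:182982686-182983567) in 5, 3 with and 2 without.

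**Figure D2:**
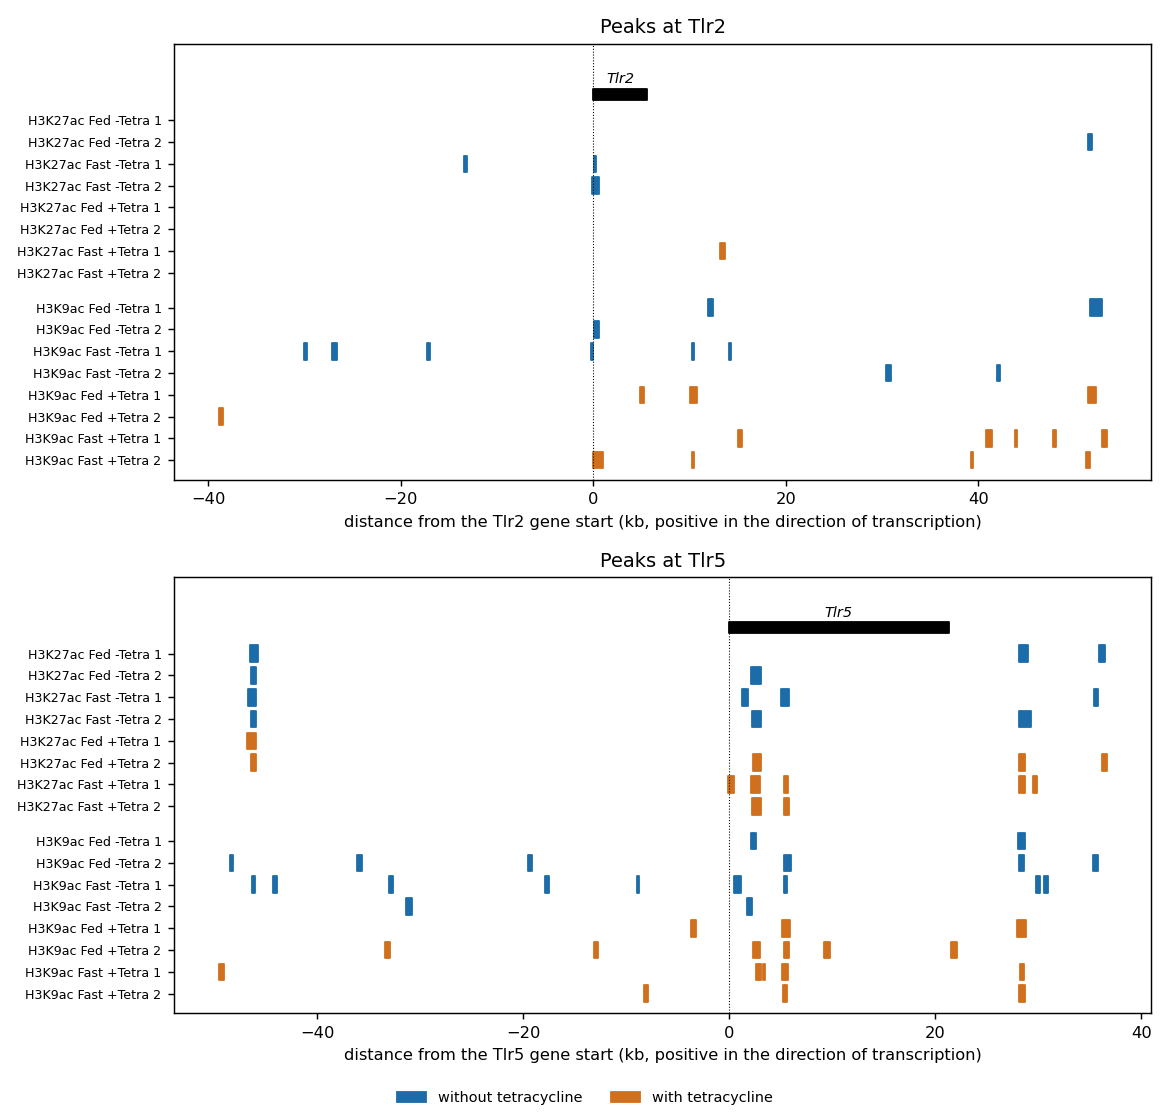
Bars are peaks in the Tlr2 (top) and Tlr5 (bottom) loci, 1 row per peak list, plotted by distance in kb from the gene start, with genes drawn above and colour for tetracycline. At Tlr2 the H3K27ac rows are empty at the start except for the 2 Fast -Tetra lists. At Tlr5, regions with a peak in 3 or more lists of a mark lie near 2.09, 4.94 and 28.1 kb downstream of the start. In H3K27ac another lies 45.8 kb before the start.

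Tlr4, the lipopolysaccharide receptor, had 1 H3K27ac peak in its whole locus over all 8 lists, in the body in list Fast -Tetra 2. Its H3K9ac peaks covered 0 to 2.27 kb, and its gene end was marked in list Fast -Tetra 1, the longest list with 99050 peaks. Tlr1 and Tlr6, which pair with Tlr2, lie 19.5 kb apart, so their loci overlap and share peaks. The region counted at the end of Tlr6 (chr5:64968599-64971108) was present in 8 H3K27ac lists, and it also covers the end of Fam114a1, which overlaps Tlr6. The start sites of Tlr6 in the promoter table lie 11.8 and 10.9 kb from that end. The nearest H3K27ac peak was 8.55 to 9.40 kb from either of these start sites. Neither start site was marked in any list of either mark. Tlr6 lies on the minus strand, so the marked end is the 5′ end of its gene body, where 7 H3K9ac lists also had a peak. Tlr1 had H3K27ac in its flanks alone in all 8 lists, among them that same Tlr6 and Fam114a1 region in each list. In H3K9ac a peak lay 0.21 kb from a Tlr1 start in list Fast +Tetra 2.

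The endosomal receptors differed from each other. Tlr3 had an H3K27ac peak over its start (chr8:45409661-45411975) in all 8 lists. Its width was 1619, 2012, 2009 and 1928 bp in the lists without tetracycline, Fed 1, Fed 2, Fast 1 and Fast 2 in turn, and 1807, 1800, 1831 and 1964 bp with it. The states overlapped. Between 5.70 and 29.5% of a list's peaks scored higher, which put Tlr3 in the upper part of every list. In H3K9ac the end of Tlr3 was marked in both Fast -Tetra lists, Fed +Tetra 2 and Fast +Tetra 1, that is in 3 of 4 Fast lists and 1 of 4 Fed lists.

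Tlr9, the sensor of CpG DNA, had a locus rich in H3K27ac, 7.47 to 15.1 kb covered, although its own body was bare. No H3K27ac peak touched the body in any list, and the nearest peak was 6.36 to 10.2 kb from the start. The covered length came from the flanks: a region in Twf2, an actin-binding protein gene, 9.07 kb upstream (chr9:106210711-106213527), and a broad one at the end of Alas1, the first enzyme of heme synthesis, 24.0 kb downstream (chr9:106246627-106252022), were both present in 8 lists. Beyond Alas1 lay a row of regions 38.9 to 51.5 kb downstream of the Tlr9 start, outside any protein-coding gene. The most split of these 7 regions by tetracycline were chr9:106261451-106262896, with a peak in 4 lists without and 1 with it, and chr9:106269613-106270543, in 3 without and 0 with it. The last 2, at 49.3 and 51.5 kb, each had a peak in 3 lists without and 1 with tetracycline. The 3 between did not separate: they had a peak in 4 lists without and 3 with it (40.5 kb), 4 and 4 (42.3 kb), and 3 and 4 (43.9 kb).

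In H3K9ac the Tlr9 locus was the only one of the 10 whose covered length did not overlap between the tetracycline states. Without tetracycline it covered 4.97, 9.48, 8.58 and 5.31 kb (Fed 1, Fed 2, Fast 1 and Fast 2), and with tetracycline 4.07, 4.70, 2.72 and 4.77 kb. All 4 treated lists were below all 4 untreated ones, with means of 4.06 and 7.08 kb, although 4.77 and 4.97 kb nearly touch. The lowest untreated list, Fed -Tetra 1, included a 607 bp peak 0.91 kb from the Tlr9 start that no other H3K9ac list had. In that list 94.2% of peaks scored higher. Without that peak it would fall below the treated lists at 4.70 and 4.77 kb, and the states would overlap. The exact permutation p of 0.056 is the smallest that the 36 arrangements within feeding states can give, and the Benjamini-Hochberg adjusted p over all genes was 1. Over all genes, 0.142% had H3K9ac covered length lower with tetracycline without overlap, and 0.238% higher. The states overlapped again with peaks at least 500 bp wide, with the upper 0.5 of peaks by score, per Mb covered and with equal numbers of top-scoring peaks. Bases at the ends of other genes covered 1.28 kb with and 1.86 kb without tetracycline, and the rest of the locus 2.79 and 5.22 kb. That rest, most of the same covered length, did not overlap between the states (1.70 to 3.42 against 3.73 to 7.34 kb). It is no separate result, and the share of all genes without such overlap was not computed. In H3K27ac the Tlr9 locus covered 9.55 kb with and 12.9 kb without tetracycline, with overlap (exact permutation p = 0.17). With 20 kb flanks, which do not reach the regions beyond Alas1, that H3K27ac difference of -3.40 kb was -0.695 kb.

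**Figure D3:**
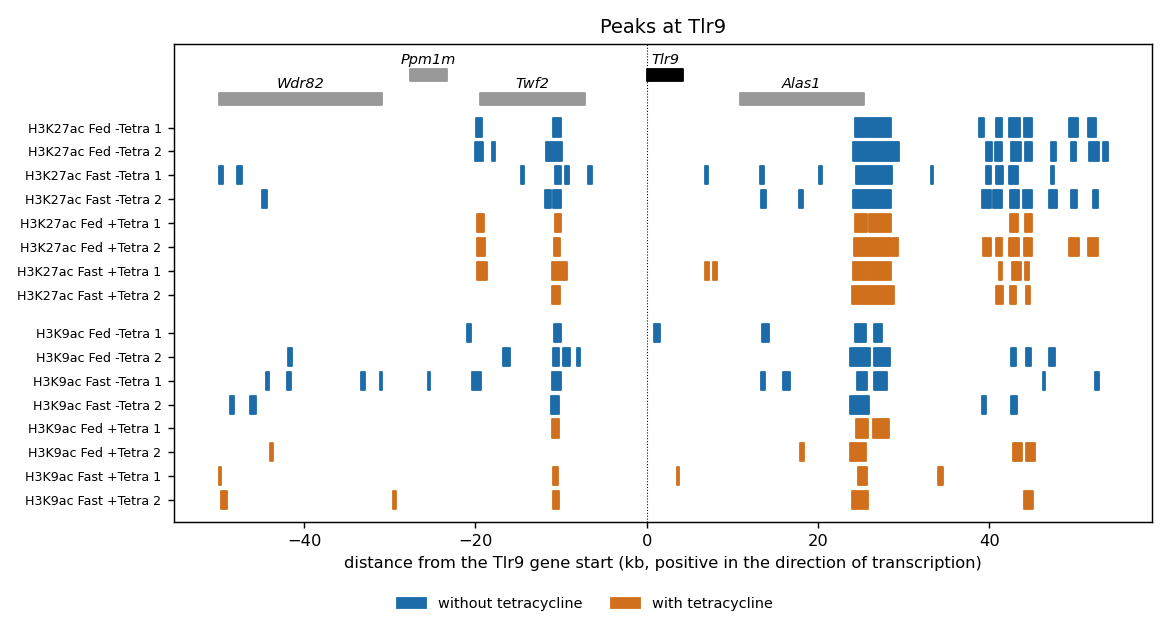
Bars are peaks around Tlr9 by distance in kb from its start, 1 row per peak list, with neighbouring genes above and colour for tetracycline. The Tlr9 body is empty in all H3K27ac rows, and the broad peak at the end of Alas1 is in every row. From 38.9 kb downstream to the end of the locus lie 4 to 8 H3K27ac peaks in the rows without tetracycline and 2 to 6 in those with it.

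Nod1 was marked at the start in nearly every list of both marks, and Nod2 in all 8 H3K27ac lists but 5 of 8 H3K9ac lists. The Nod1 start region (chr6:54971672-54973452 in H3K27ac) had a peak in 7 lists, all but Fast -Tetra 1, and its H3K9ac counterpart (chr6:54971599-54973420) in 8. Of a list's peaks, 4.31 to 57.8% scored above the Nod1 end peak in H3K9ac and 30.1 to 85.2% in H3K27ac. A region in the body (chr6:54955572-54957000), 14.7 kb downstream of the start, had H3K27ac in 4 lists without and 2 with tetracycline. Body coverage of Nod1 in H3K27ac was 3.66, 3.09, 1.10 and 2.96 kb without tetracycline (Fed 1, Fed 2, Fast 1 and Fast 2) and 0.861, 1.15, 2.12 and 2.23 kb with it. The states overlapped (exact permutation p = 0.22).

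Nod2 had H3K27ac over its start (chr8:88646670-88648641) and 3.20 kb upstream (chr8:88642471-88644147) in all 8 lists. Its locus held 5 regions present in 8 lists, the most of the 10 loci, but the other 3 lie at the end of Snx20, a sorting nexin gene, and at the end and in the body of Cyld, a deubiquitinase gene. Between 29.2 and 49.8% of a list's peaks scored above the Nod2 start peak, a middling rank that stayed narrow over the lists. Inside the gene the lists separated by tetracycline. H3K27ac covered 2.69, 2.16, 2.99 and 2.94 kb of the body without tetracycline (Fed 1, Fed 2, Fast 1 and Fast 2) and 0.315, 1.995, 0.793 and 1.23 kb with it, so every treated list was below every untreated one. The number of body peaks away from the ends was 2, 2, 3 and 3 without and 0, 2, 1 and 1 with tetracycline. In Fed -Tetra 1, the body peak 38.1 to 39.3 kb downstream of the start was found in no other H3K27ac list. Without that peak, Fed -Tetra 1 would fall below Fed +Tetra 2 (1.995 kb) and the states would overlap.

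The mean body coverage of Nod2 was 1.08 kb with and 2.70 kb without tetracycline, a difference of -1.61 kb. The SD between the 2 lists of a group, pooled over the 4 groups, was 0.57 kb. The exact permutation p was 0.056, the smallest possible, and the adjusted p over all genes 1. The gene body alone was examined after the data were seen. Over all genes, 0.937% had H3K27ac body coverage lower with tetracycline without overlap, and 0.215% higher; for H3K9ac these shares were 0.361 and 0.544%, with 0 of the 10 genes. The states still did not overlap at Nod2 with peaks at least 500 bp wide or per Mb covered, but they overlapped with the upper 0.5 of peaks by score (0.287 against 1.07 kb) and with equal numbers of top-scoring peaks (0.800 against 1.34 kb). The difference was -0.94 kb between the lists numbered 2 and -2.29 kb between those numbered 1. One region of the body, 19.0 kb downstream of the start (chr8:88666313-88667021), was found in 3 lists without and 0 with tetracycline. The region beside it (chr8:88667797-88669364) was found in 4 lists without and 3 with it. In H3K9ac the start of Nod2 was less constant, with 5 lists marked at an end, and body coverage overlapped (0 to 1.34 kb with and 0.438 to 2.09 kb without tetracycline).

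**Figure D4:**
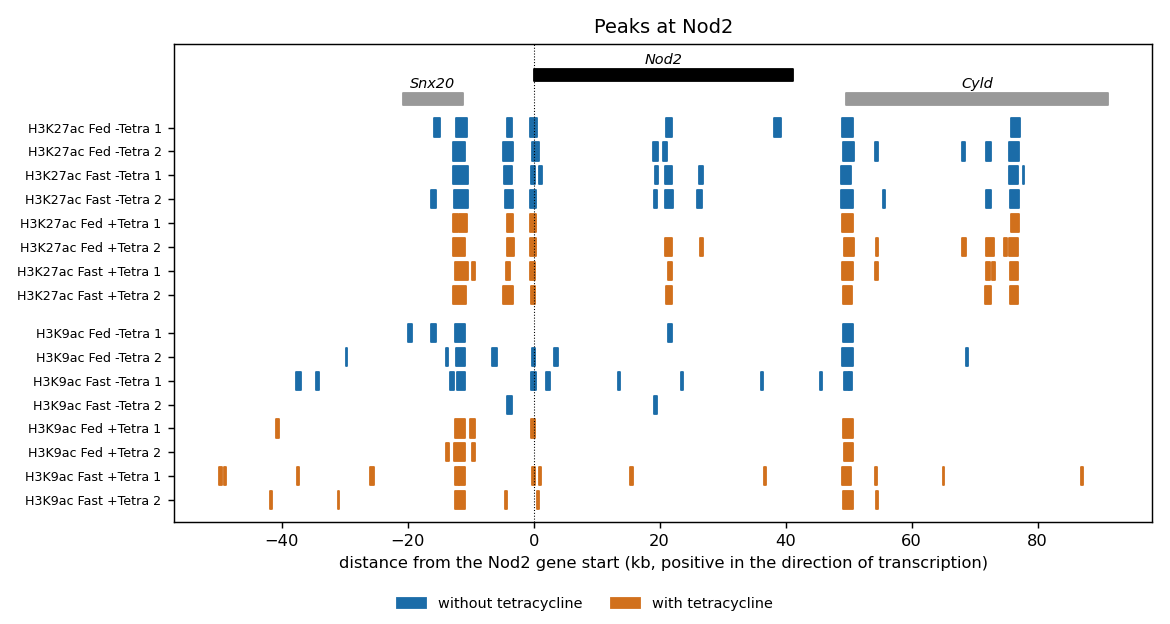
Bars are peaks around Nod2 by distance in kb from its start, 1 row per peak list, with neighbouring genes above and colour for tetracycline. The start, the region 3.20 kb upstream and the end of Cyld are filled in all H3K27ac rows. Inside the gene and away from its ends, the untreated H3K27ac rows hold 2 to 3 peaks and the treated rows 0 to 2.

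Myd88 had the highest-ranking H3K27ac end peak of the 10 genes in every list. Its H3K27ac end peak spanned 3978, 4671, 4337 and 5652 bp without tetracycline (Fed 1, Fed 2, Fast 1 and Fast 2) and 3036, 6816, 5074 and 6818 bp with it. The widths overlapped between the states. No more than 0.383% of a list's peaks scored higher in any H3K27ac list, and as few as 0.053%. In H3K9ac no more than 6.90% of peaks scored higher in any list but Fast -Tetra 2, where 76.6% did. The region (chr9:119339105-119346788) reaches over the end of Acaa1a, a peroxisomal thiolase gene 1.01 kb away, so the mark at Myd88 cannot be told apart from that of its neighbour. The locus covered 7.23 to 12.4 kb in H3K27ac and 4.24 to 10.5 kb in H3K9ac. Its mean was 11.1 kb with and 10.6 kb without tetracycline in H3K27ac, and 8.16 and 7.43 kb in H3K9ac, with overlap in both.

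Across the 10 genes, the number marked at an end was nearly the same with and without tetracycline. On average 5.25 of the 10 were marked per H3K27ac list with and 5.25 without tetracycline, with 5 to 6 in each list, an SD between lists of a group of 0.50. For H3K9ac the means were 5 with and 5.25 without, against an SD of 1.54. Among all genes 46.7 and 48.6% were marked with and without tetracycline in H3K27ac, and 47.2 and 46.6% in H3K9ac. No gene of the 10 differed by 3 or more of 4 lists between the states in either mark, where 0.777% of all genes did in H3K27ac and 1.11% in H3K9ac. The H3K27ac covered length was lower with tetracycline at 7 of the 10 loci and higher at 3, with a median difference of -0.28 kb. Over all genes it was lower at 66.7% and higher at 25.3%, with a median of -0.23 kb, close to the values of the 10 loci. In H3K27ac 0 of the 10 loci did not overlap between the states, against 1.22% of genes lower and 0.128% higher with tetracycline. For H3K9ac the median difference was -0.31 kb over the 10 loci, with 4 higher and 6 lower. Over all genes it was 0.10 kb, with 56.8% higher and 40.8% lower.

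**Figure D5:**
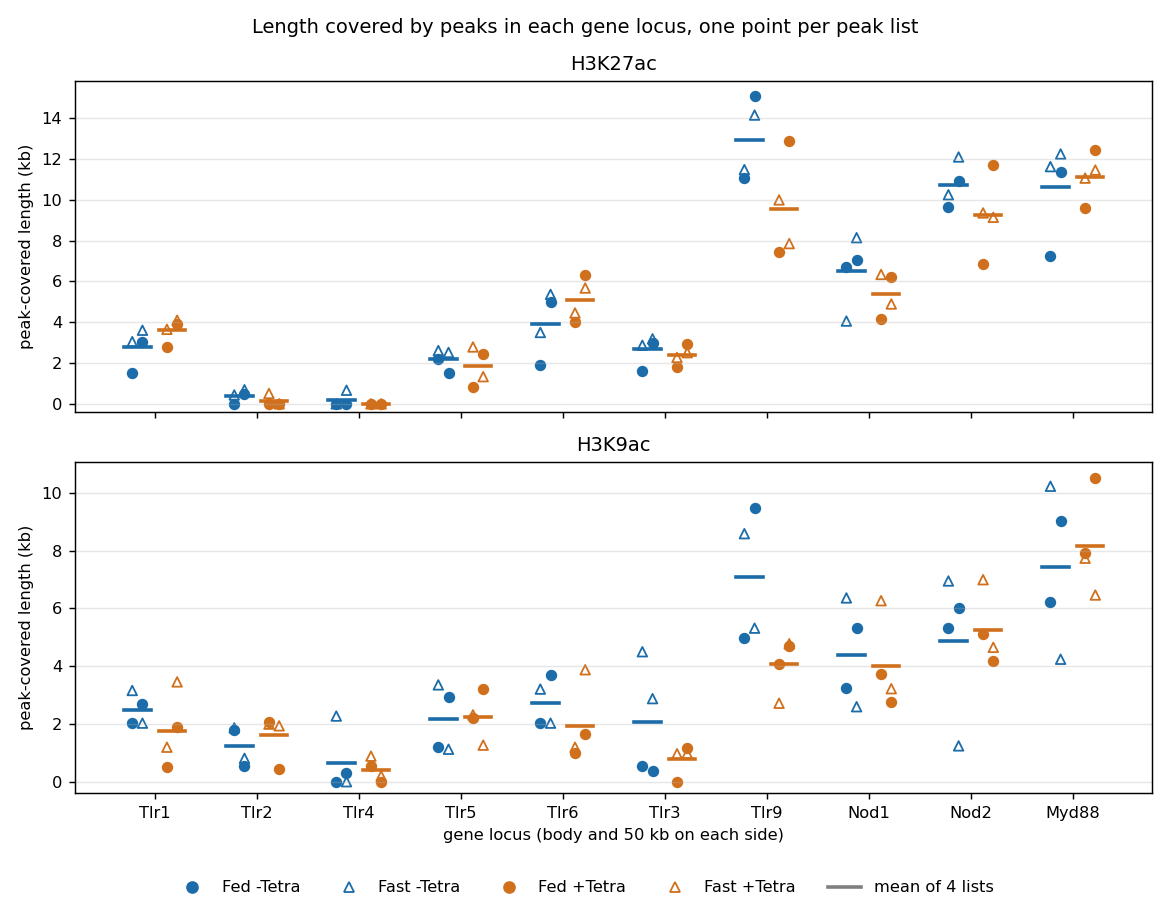
Points give the length in kb covered by peaks in each locus, 1 point per peak list, in blue without and in orange with tetracycline, filled for Fed and open for Fast; bars are means of 4 lists. At Tlr9 in H3K9ac the orange points (2.72 to 4.77 kb) all lie below the blue ones (4.97 to 9.48 kb), and the colours overlap at every other locus in both marks.

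By feeding, 5.5 of the 10 genes were marked per Fast list and 5 per Fed list in H3K27ac, and 5.75 and 4.5 in H3K9ac. Both differences were no larger than the SD between lists (0.50 and 1.54), and the highest H3K9ac count, 8, came from the longest list, Fast -Tetra 1. Without the lists numbered 1, the H3K9ac difference between Fast and Fed changed to -0.50 genes. H3K27ac covered length was higher in Fast at 8 loci and lower at 2, with a median difference of 0.40 kb, beside 0.43 kb over all genes, of which 73.6% were higher. H3K9ac was higher in Fast at 6 loci, with a median of 0.47 kb beside 0.48 kb over all genes. The largest H3K9ac difference by feeding was at Tlr3, with 2.33 kb in Fast and 0.52 kb in Fed lists (exact permutation p = 0.17, adjusted p = 0.88 over all genes). No gene of the 10 differed by 3 or more lists by feeding, where 1.10% of all genes did in H3K27ac and 1.77% in H3K9ac. None of the 10 loci was without overlap by feeding: over all genes, H3K27ac was higher in Fast without overlap at 5.29% and lower at 0.128%, and H3K9ac at 3.48 and 0.251%. For the gene body alone the shares were 3.36 and 0.320% in H3K27ac and 2.30 and 0.402% in H3K9ac, again with 0 of the 10 genes.

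Merging overlapping peaks of the 8 lists of a mark gave 96 H3K27ac regions in the 10 loci, of which 13 were present in all 8 lists (13.5%, beside 14.6% of all regions) and 41 in a single list (42.7%, beside 53.1%). In H3K9ac there were 210 regions, 3 in all 8 lists (1.43%, beside 1.52%) and 172 in 1 list (81.9%, beside 84.4%). No region of the 10 loci had a peak in all 4 lists of one state and none of the other, by tetracycline or by feeding. Of all regions, 0.112% did so by tetracycline and 0.484% by feeding in H3K27ac, and 0.0277 and 0.0335% in H3K9ac. A difference of 3 or 4 lists, a looser rule added later, held for 3 H3K27ac regions by tetracycline, where 1.34% of all regions met it. These were the 2 regions downstream of Alas1 in the Tlr9 locus and the one in Nod2, all in more lists without tetracycline. By feeding it held for 2 H3K27ac regions, the one in Tlr5 and one at the end of Twf2 (chr9:106202600-106203978, 1 Fast and 4 Fed lists), where 2.82% of all regions met it. In H3K9ac it held for 0 regions, beside 0.402% of all by tetracycline and 0.555% by feeding.

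Of 43 other genes of the pathway, 20 were marked in all 8 H3K27ac lists, 6 in none and 17 in 1 to 7 lists, where 33.6% of all genes were marked in all 8. In H3K9ac 14 were marked in all 8, 5 in none and 24 in between, where 21.1% of all genes were marked in all 8. Of the kinases and ubiquitin ligases 9 of 13 were marked in all 8 H3K27ac lists and 8 of 13 in all 8 H3K9ac lists, among them Irak4, the first kinase bound by Myd88, and Ikbkb. Both NF-kB genes listed, Nfkb1 and Rela, were marked in 8 lists of each mark. The NAIP partner Nlrc4, which responds to flagellin in the cytosol, and Nlrp6 were also marked in 8 lists of each mark, whereas Tlr5 was marked at an end in 1 and 2. Ripk2, the kinase downstream of Nod1 and Nod2, was marked in 7 H3K27ac and 6 H3K9ac lists. Of the 5 remaining receptors, Tlr7, Tlr8, Tlr11 and Tlr13 were marked in 0 of 16 lists, and Tlr12 in 5 H3K27ac lists and 1 H3K9ac list.

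By tetracycline, 2 of the 43 partners differed by 3 or more lists in H3K27ac, where 0.777% of all genes did, and 1 in H3K9ac, where 1.11% did. In H3K27ac Ticam2, the adaptor between Tlr4 and Ticam1, was marked in 0 of 4 lists with and 3 of 4 without tetracycline, and Sarm1, a negative regulator among the adaptors, in 1 and 4. In H3K9ac Nfkbiz, an NF-kB cofactor induced by Toll-like receptor signals, was marked in 1 list with and 4 without tetracycline. The H3K27ac lists held 43522 peaks on average with and 51966 without tetracycline, and the H3K9ac lists 57469.5 and 50935. All 3 partner genes were marked in fewer lists with tetracycline, and the part of list length in this was not tested. None differed by 3 lists in the other mark: with and without tetracycline, H3K9ac marked Ticam2 in 2 and 3 lists and Sarm1 in 0 and 2, and H3K27ac marked Nfkbiz in 2 and 2. By feeding, Ly96, the lipopolysaccharide-binding partner of Tlr4, was marked in 3 Fast and 0 Fed H3K9ac lists, and in 2 and 1 H3K27ac lists. It was the one partner that differed by 3 or more lists by feeding in H3K9ac, where 1.77% of all genes did, and in H3K27ac 0 did, beside 1.10%.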

How the data were processed

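CUT&Tag for H3K27ac and H3K9ac was read from 16 peak lists of 8 samples. The authors' deposited lists give, for each peak, coordinates, a MACS peak name and a score, whose unit is not stated and which was used only to rank peaks within a list. Per the submitters' processing notes, FastQC, Bowtie, SAMtools and the build mm10 were used; peak-calling settings are not given in the sources used here. The names of the lists call them downsampled, and depth is unknown, so a missing peak is not absence of the mark. Genes and promoters came from RefSeq tables for GRCm38. From the lists, marked ends (within 1 kb), covered length (body and 50 kb flanks), and regions (peaks merged at 1 bp overlap) were computed. States were compared by exact permutation within the other factor (36 arrangements, two-sided), with Benjamini-Hochberg adjustment over 21883 genes; no test could pass 0.05, so states whose 4 lists did not overlap were counted. Called regions or partner genes named differ by at least 3 of 4 lists; all 10 members are named. Members and lists were chosen with earlier results of these data known. Counting was tested on simulated data. Alternatives were another window and flank, starts alone, peak centres, score, number and width of peaks, length per Mb covered, an overlap of 0.5, and list number. Software was numpy 2.4.6 and pandas 2.3.3 under Python 3.11.15, with figures from matplotlib 3.10.9.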

Additional observations from a re-analysis of the deposited data

How the results depend on the processing

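Values of single genes were small beside the spread of the lists. Of 286 alternative values of covered length for single loci, 250 moved by less than the SD between lists, and 54 changed sign; of 316 values of gene-end marking 285 stayed within that SD and 9 changed sign. None of the changes of sign concerned Tlr9 in H3K9ac or the Nod2 body. The Tlr9 difference in H3K9ac (-3.02 kb) lay between -3.38 and -0.859 kb over its 7 alternatives, and that in H3K27ac (-3.40 kb) between -4.26 and -0.695 kb. The count of loci lower with tetracycline in H3K9ac (1) was 0 with the upper 0.5 by score, with equal numbers of top peaks, with peaks at least 500 bp wide and per Mb covered, and 1 to 3 when the lists of 1 number were left out (2.53 to 10.5% of genes). In H3K27ac (0 each), the count higher with tetracycline was 1 per Mb covered (1.04% of genes), 2 with the list number as a replicate block (1.61%), and 1 to 2 without the lists of 1 number (3.58 to 4.97%); the count lower was 1 with a 20 kb flank (beside 1.22% of genes), 1 with the replicate block (10.99% of genes) and 2 to 4 without the lists of 1 number (9.78 to 22.3% of genes). By feeding in H3K27ac, the difference in genes marked (0.50) was -0.25 with equal numbers of top peaks; the count of loci higher in Fast was 1 with the replicate block (15.4% of genes) and 0 to 5 without the lists of 1 number (12.1 to 53.0%), and the count lower was 2 per Mb covered (4.98%). By feeding in H3K9ac, the difference in genes marked (1.25) was -1 with equal numbers of top peaks, and -0.50 to 3 without the lists of 1 number; the count higher in Fast was 1 to 5 (6.35 to 70.4% of genes) and the count lower 0 to 2 (0.932 to 36.6%) without those lists, and the count lower was 1 with equal numbers of top peaks (6.02%) and 2 per Mb covered (4.60%). The count higher with tetracycline in H3K9ac was 0 to 1 without the lists of 1 number (10.2 to 12.7% of genes). The cause of these changes was not tested. Numbers 1 and 2 come from deposited names alone, so the block is no shown pairing.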
